A study of Mus musculus with 6 samples.

Results

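Activin, BMP and Id genes were followed in livers of fasted mice through 10 genes chosen by name: the activin subunit genes Inhba, Inhbc and Inhbe, the extracellular binding protein genes Fst and Bmper, the inhibitory Smad genes Smad6 and Smad7, and the Id genes Id1, Id2 and Id3. All 10 were found among the 12366 genes of the deposited table. The livers came from male C57BL/6 mice on chow, 22 weeks old, that had fasted for 48 h. One genotype was Acss2-/- (Acss2-KO, 3 libraries) and the other was wild type (WT, 3 libraries). Acss2 encodes the enzyme that makes acetyl-CoA from acetate in cytosol and nucleus. The labels name no Cre and no tissue in which the allele is restricted. Libraries are numbered as replicates without saying that each is a separate animal; the spread that p-values are measured against may then be partly technical.

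Activins are dimers of inhibin beta subunits. They bind type II and type I activin receptors and act through SMAD2 and SMAD3, while bone morphogenetic proteins (BMPs) act through SMAD1, SMAD5 and SMAD9. Follistatin, the product of Fst, traps activins, BMPER binds BMPs, and SMAD6 and SMAD7 dampen the receptors' signal inside the cell. Id proteins are helix-loop-helix proteins without a DNA-binding region that hold E proteins away from DNA, and in liver Id1 is a textbook target of BMP signalling together with Hamp, the hepcidin gene. Inhbc and Inhbe are expressed mainly in liver, in hepatocytes.

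Promoter windows are shown for Inhbc and Inhbe, which lie next to each other on chromosome 10, and for Id2 and Id3, which went in opposite directions. The windows, 250 bases before to 50 after the annotated gene start, run 5′ to 3′ on the gene's strand, from RefSeq on GRCm38.p6; 7 members had an entry that could be shown. Capitals mark matches to the letters searched, on either strand: CAGAC (the SMAD box, GTCTG when read from the other strand), GGCGCC (a GC-rich element known from BMP-responsive genes), TGATGNAA (the element bound by ATF4 and C/EBP factors), GTAAACA (forkhead), TGACGTCA (the cAMP response element) and TATAAA (the TATA box).
Inhbc, chr10:127370499-127370798, minus strand: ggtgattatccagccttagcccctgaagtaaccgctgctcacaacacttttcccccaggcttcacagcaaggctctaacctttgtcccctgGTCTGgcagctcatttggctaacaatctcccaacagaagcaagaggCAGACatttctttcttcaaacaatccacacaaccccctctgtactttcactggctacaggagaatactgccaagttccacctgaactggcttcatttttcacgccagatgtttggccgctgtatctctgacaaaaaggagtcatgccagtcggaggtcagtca
Inhbe, chr10:127351799-127352098, minus strand: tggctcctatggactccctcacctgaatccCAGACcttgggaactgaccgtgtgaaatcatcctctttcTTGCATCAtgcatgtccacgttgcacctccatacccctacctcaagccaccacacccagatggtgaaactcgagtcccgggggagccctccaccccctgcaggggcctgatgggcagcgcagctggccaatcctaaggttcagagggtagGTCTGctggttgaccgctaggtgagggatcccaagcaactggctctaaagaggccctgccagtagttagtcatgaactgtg
Id2, chr12:25096043-25096342, minus strand: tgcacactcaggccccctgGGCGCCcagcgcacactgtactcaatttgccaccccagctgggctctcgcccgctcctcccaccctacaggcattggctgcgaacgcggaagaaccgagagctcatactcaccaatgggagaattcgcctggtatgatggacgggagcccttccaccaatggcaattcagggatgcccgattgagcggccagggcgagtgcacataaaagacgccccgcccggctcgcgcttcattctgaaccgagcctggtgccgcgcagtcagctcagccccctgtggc
Id3, chr4:136143572-136143871, plus strand: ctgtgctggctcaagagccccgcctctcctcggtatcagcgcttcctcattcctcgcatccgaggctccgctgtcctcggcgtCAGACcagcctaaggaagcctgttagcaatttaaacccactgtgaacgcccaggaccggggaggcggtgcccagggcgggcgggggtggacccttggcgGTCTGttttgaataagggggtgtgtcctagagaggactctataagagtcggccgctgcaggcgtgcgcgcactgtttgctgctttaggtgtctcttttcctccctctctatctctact
The Inhbc window held CAGAC at 2 places, and so did the Inhbe and Id3 windows; 49.6% of 32851 promoter windows of the same length hold it. The Inhbe window also held TGATGNAA at 1 place, as do 3.97% of all windows. The Id2 window held GGCGCC at 1 place, as do 11.9% of all windows, and no CAGAC. No match overlapped another in these 4 windows, and GTAAACA (3.65% of all windows), TGACGTCA (1.79%) and TATAAA (13.6%) were not found in them. A match describes letters and shows no binding. The Id3 window lies wholly inside the Id3 gene as deposited, 136143497 to 136145755, since RefSeq sets the start of Id3 further in.

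Levels are given in CPM (reads scaled to a common library total, here 997061 to 997856 CPM summed over genes), and a gene under 1 CPM is listed at 0 in the deposited log2 values, which sets the floor at 1 CPM. From the steps between low values, 1 CPM stood for 21.8 to 28.6 reads in Acss2-KO libraries and 23.4 to 30.8 reads in WT libraries, which sets the precision of low genes. Acss2 itself was at 1.37, 3.56 and 2.35 CPM in Acss2-KO livers, against 74.0, 81.0 and 73.5 CPM in WT livers. Hepatocyte markers (6 genes) summed to 104887 to 119730 CPM in Acss2-KO and 87841 to 110027 CPM in WT. That sum, mostly Alb, hides markers that went opposite ways, named after their values were seen. Ttr was at 1003, 1710 and 1067 CPM in Acss2-KO and 4300, 4211 and 4270 CPM in WT. Tat was at 6295, 1885 and 3169 CPM in Acss2-KO and 1499, 719 and 1105 CPM in WT. One library stood apart: 9 skeletal muscle genes, a list added after values were seen, summed to 509 CPM in Acss2-KO replicate 1, 9.09 CPM in replicate 2 and 17.1 CPM in replicate 3, against 9 to 10.7 CPM in WT libraries, where 9 means every gene at the floor. A pair of squamous epithelial genes summed to 125 CPM in the same library and to at most 2.48 CPM in the others. Values without Acss2-KO replicate 1 are given below for the members Inhbe, Fst, Bmper and Id3. For other genes of the pathways, calls lost without it are named. Kupffer cell markers (8 genes) summed to 64.5 to 133 CPM in Acss2-KO and 167 to 498 CPM in WT. Stellate cell markers (10 genes) summed to 111 to 201 CPM in Acss2-KO and 190 to 276 CPM in WT. Des, which is also a muscle gene, was at 72.0 CPM in Acss2-KO replicate 1, and the other 9 stellate markers summed to 108 to 133 CPM in Acss2-KO and 186 to 271 CPM in WT. Sinusoidal endothelial markers (10 genes) summed to 368 to 475 CPM in Acss2-KO and 325 to 494 CPM in WT. The 2 cholangiocyte markers in the table went opposite ways: Sox9 was at 7.01, 11 and 10.6 CPM in Acss2-KO and 3.16, 4.35 and 2.14 CPM in WT, and Spp1 at 7.01, 6.32 and 6.32 CPM in Acss2-KO and 29.9, 32.9 and 30.1 CPM in WT. Leukocyte markers (3 of 7 in the table) summed to 4.81 to 6.13 CPM in Acss2-KO and 8.11 to 19.4 CPM in WT. Of these, Nkg7 was listed at 0 in all Acss2-KO libraries. It was at 1 (listed at 0), 2.01 and 1.12 CPM in WT, so the groups overlapped at or near the floor. In bulk liver, fewer cells of a type and less RNA per cell cannot be told apart.

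Of the 10 genes, 9 averaged 5 CPM or more across all libraries and were tested with limma on log2(CPM + 1). By Benjamini-Hochberg adjusted p under 0.05, 4 were higher in Acss2-KO (Fst, Bmper, Id1 and Id3) and 2 lower (Inhbc and Id2), while Inhbe, Smad6 and Smad7 did not pass. Among all 9355 tested genes, 36.5% passed, 13.4% higher and 23.1% lower, so a call is common here. The 2 groups of libraries did not overlap for 6 of the 9 genes, against 52.9% of all tested genes. Fst and Bmper passed the filter through the Acss2-KO libraries alone, so their place among the 4 higher genes is no support for a direction of the group, and Inhba, at the floor in Acss2-KO, did not reach it. Tested genes as a whole had a median log2 fold change of -0.12. Each of 4 scalings that moved this median closer to 0 left all 6 of these calls in place. The unscaled split over tested genes was 1252 higher and 2161 lower. It was 1690 higher and 1765 lower with median-of-ratios scaling, 1709 and 1745 with a trimmed mean, 1622 and 1815 with the upper quartile, and 1791 and 1625 with quantile scaling. The authors' deposited table gives an adjusted p under 0.05 to 8 of the 10 genes, 4 higher and 4 lower, and to 27.2% of its 12366 genes, 12.5% higher and 14.7% lower.

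**Figure D1:**
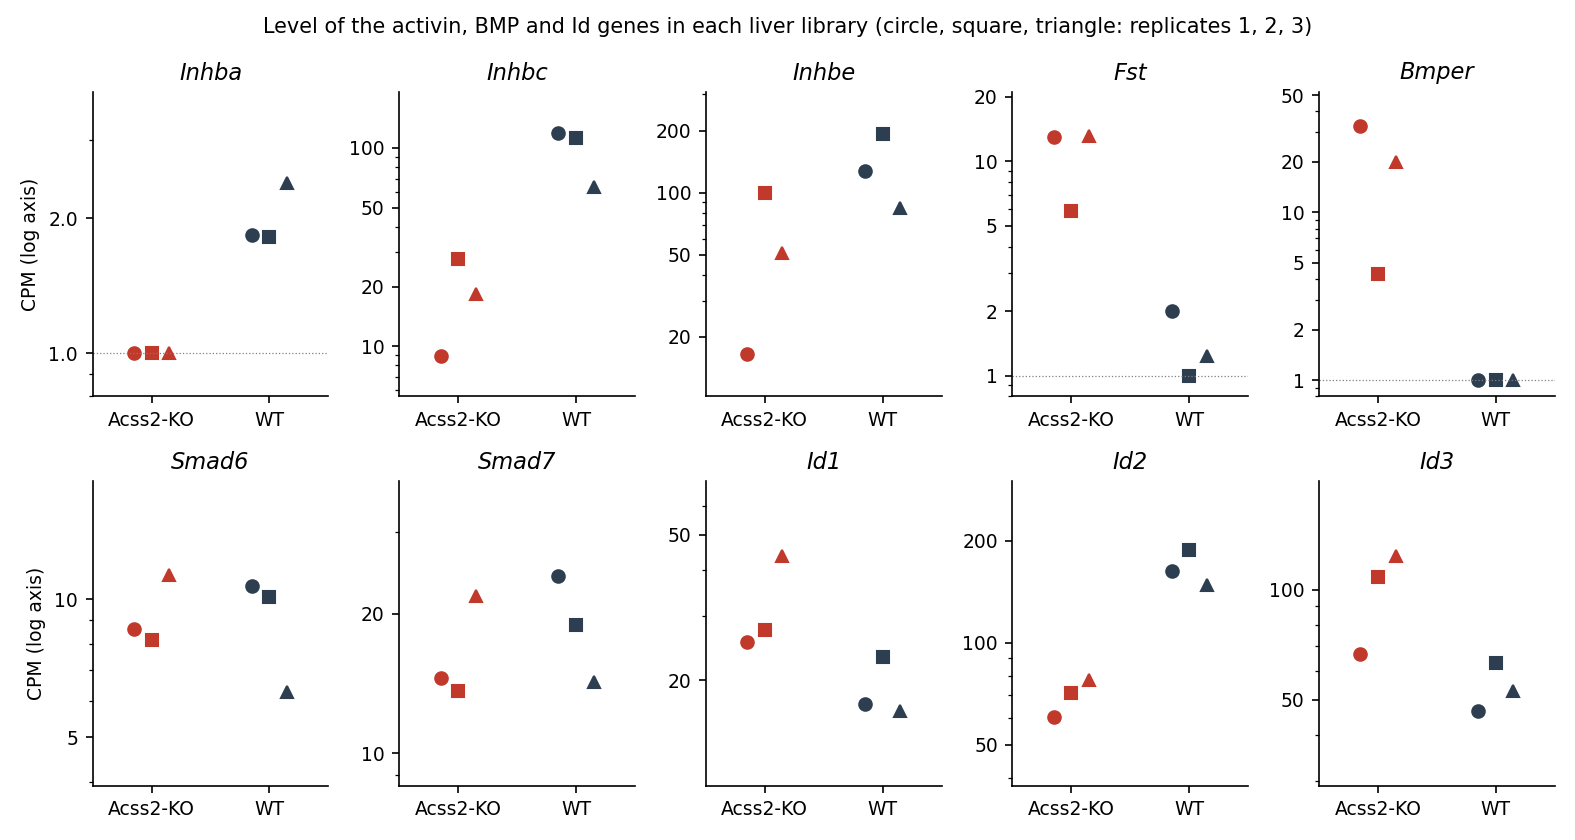
Each point is 1 library, Acss2-KO left in red and WT right in dark blue, on a log axis of CPM that differs between panels; the dotted line marks the floor of 1 CPM. Fst and Bmper lie high in Acss2-KO, Inhbc and Id2 lie low, Id1 and Id3 lie above WT by a small gap, and the groups overlap for Inhbe, Smad6 and Smad7.

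Of the activin subunit genes of hepatocytes, Inhbc was lower in Acss2-KO livers and Inhbe did not pass. Inhbc, which encodes the beta-C subunit (ENSMUSG00000025405, chromosome 10, 127356328 to 127370544), was at 8.94, 27.5 and 18.4 CPM in Acss2-KO replicates 1 to 3, against 119, 112 and 63.1 CPM in WT replicates 1 to 3. Every Acss2-KO library lay below every WT library, with a wide gap between the groups. The means were 18.3 ± 9.27 CPM in Acss2-KO and 98.3 ± 30.6 CPM in WT (SD, n = 3 each). Inhbc fell by 2.44 on the log2 scale, which is 5.42-fold (SE 0.41, limma adjusted p = 0.0043). The call held in each of 19 alternatives, with log2 fold changes between -2.78 and -1.90.

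Inhbe, which encodes the beta-E subunit (ENSMUSG00000047492, chromosome 10, 127349402 to 127351772), was at 16.4, 99.7 and 50.9 CPM in Acss2-KO livers, against 127, 193 and 84.4 CPM in WT livers. Acss2-KO replicate 2 lay above WT replicate 3, so the groups overlapped. The log2 fold change was -1.51 (95% interval -3.19 to 0.17, limma adjusted p = 0.13). It passed without Acss2-KO replicate 2 (log2 fold change -2.09, adjusted p = 0.028), and without Acss2-KO replicate 1 the log2 fold change was -0.83 (adjusted p = 0.15). The authors' deposited table gives it a log2 fold change of -1.11 with an adjusted p of 0.012.

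The genes are 4555 bp apart in the deposited coordinates and are read from the same strand. Among Acss2-KO libraries both had the order replicate 1, then 3, then 2 from low to high. The CPM ratio of Inhbc to Inhbe was 0.543, 0.275 and 0.361 in Acss2-KO livers, against 0.940, 0.582 and 0.747 in WT livers. The groups did not overlap, by a narrow gap, and the ratio was 1.96-fold lower in Acss2-KO (two-sided exact permutation p = 0.10, the smallest that 3 against 3 libraries allow; 0.13 adjusted over the 4 ratios computed, which were chosen after values were seen). The nearest genes of the table on either side were Arhgap9, at 1 to 1.52 CPM in Acss2-KO and 1.32 to 3.61 CPM in WT, and R3hdm2, at 80.4, 106 and 112 CPM in Acss2-KO and 129, 120 and 77.7 CPM in WT, where the groups overlapped.

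Inhba, which encodes the beta-A subunit of activin A (ENSMUSG00000041324, chromosome 13, 16011851 to 16027211), was near the limit of detection. It is listed at 0 in every Acss2-KO library and was at 1.84, 1.82 and 2.39 CPM in WT livers. No fold is given against the floor. Without a filter on low values its limma adjusted p was 0.027, and in the authors' deposited table it is 1.7e-05. Inhbb, which encodes the beta-B subunit and is no member of the group of 10, went the other way: 37.01, 9.06 and 29.9 CPM in Acss2-KO livers, against 4.96, 8.51 and 4.11 CPM in WT livers. Acss2-KO replicate 2 lay just above the highest WT library. Its log2 fold change was 1.78 (SE 0.52, limma adjusted p = 0.036), and the call was lost on leaving out Acss2-KO replicate 1 (0.078), Acss2-KO replicate 3 (0.11), WT replicate 1 (0.12), WT replicate 2 (0.066) or WT replicate 3 (0.090).

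Fst and Bmper, the extracellular binding protein genes, were at or near the floor in WT livers and entered the test through their Acss2-KO levels. Fst (ENSMUSG00000021765, chromosome 13, 114452262 to 114458730), whose product neutralises activins, was at 13.0, 5.86 and 13.2 CPM in Acss2-KO livers, against 2.01, 1 (listed at 0) and 1.24 CPM in WT livers. The lowest Acss2-KO library was above the highest WT library. The log2 fold change was 2.22 (SE 0.31, limma adjusted p = 0.0018). WT values sit at or near the floor, so the size depends on the pseudocount: 1.25 with 5 CPM and 2.88 with none. The call held in each of 18 alternatives, including without Acss2-KO replicate 1 (2.05, adjusted p = 0.0048) and without a filter (adjusted p = 0.0016).

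Bmper (ENSMUSG00000031963, chromosome 9, 23223076 to 23485202), a secreted BMP-binding protein known from endothelium, was at 32.7, 4.29 and 19.97 CPM in Acss2-KO livers and was listed at 0 in the 3 WT libraries. The Acss2-KO libraries differed widely among themselves, and replicate 2 was the lowest, as it was for Fst. The limma adjusted p was 0.014, and 0.018 without a filter; the authors' deposited table gives a log2 fold change of 4.68 with an adjusted p of 2.5e-24. The library with muscle transcripts, Acss2-KO replicate 1, held the highest Bmper value; without it the adjusted p was 0.016, with 4.29 and 19.97 CPM left. The call was lost without Acss2-KO replicate 3 (0.051), WT replicate 1 (0.068) or WT replicate 2 (0.079), and on leaving out Acss2-KO replicate 1 along with WT replicate 2 (0.19).

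Bmper had the largest fitted log2 fold change of the called members, a rank that rests on the floor in WT: with a pseudocount of 5 CPM it was 1.78, against -2.18 for Inhbc. The 5 tested genes whose levels followed Bmper most closely over the 6 libraries (Pearson r of log2(CPM + 1), a description over libraries that also differ in genotype) were Tiparp (0.998), Ncbp1 (0.997), Wdr37 (0.997), Orc2 (0.996) and Tgfbr1 (0.996). Tiparp, the closest, was at 39.4, 12.1 and 30.7 CPM in Acss2-KO livers, against 6.19, 6.68 and 7.26 CPM in WT livers. A total of 1198 tested genes had an r above 0.9 with Bmper, so such likeness is common in these libraries. Tgfbr1 encodes the type I TGF-beta receptor.

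The inhibitory Smad genes showed no difference beyond the spread between libraries. Smad6 (ENSMUSG00000036867, chromosome 9, 63953076 to 64022059) was at 8.63, 8.17 and 11.3 CPM in Acss2-KO livers, against 10.7, 10.1 and 6.28 CPM in WT livers. The groups overlapped, with a log2 fold change of 0.07 (95% interval -0.45 to 0.58, limma adjusted p = 0.84). Smad7 was at 14.5, 13.6 and 21.9 CPM in Acss2-KO livers, against 24.1, 18.9 and 14.2 CPM in WT livers. These groups overlapped too, with a log2 fold change of -0.18 (95% interval -0.73 to 0.37, limma adjusted p = 0.58).

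**Figure D2:**
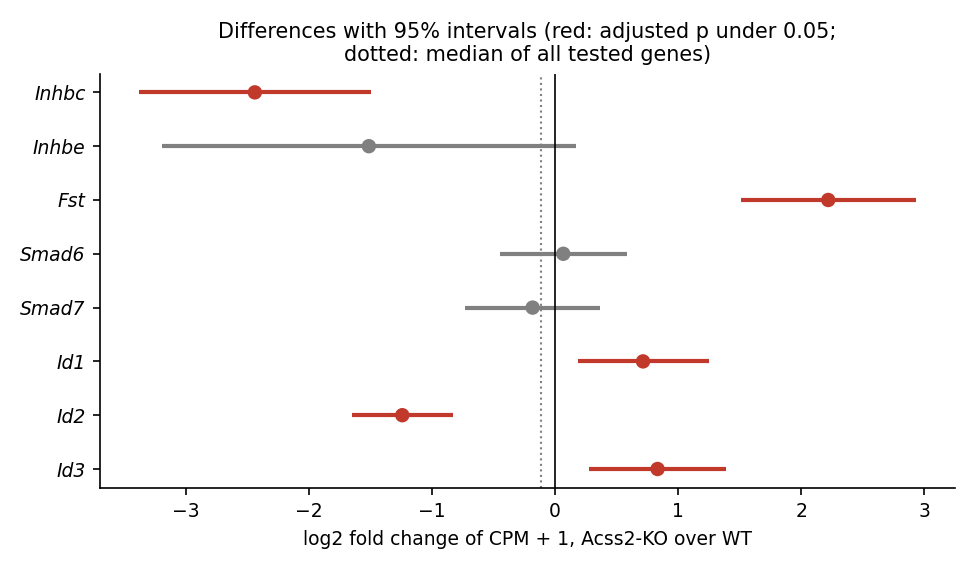
Points are log2 fold changes of CPM + 1, Acss2-KO over WT, with 95% intervals from limma, for 8 of the tested genes; Bmper is left out because WT is at the floor. Fst, Id1 and Id3 lie above 0, Inhbc and Id2 below it, and the intervals of Inhbe, Smad6 and Smad7 cover 0.

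The Id genes split. Id2 (ENSMUSG00000020644, chromosome 12, 25093801 to 25096092) was at 60.5, 71.0 and 77.7 CPM in Acss2-KO livers, against 163, 187 and 148 CPM in WT livers. All Acss2-KO libraries were below all WT libraries, and each group was tight. The means were 69.8 ± 8.65 CPM in Acss2-KO and 166 ± 19.9 CPM in WT (SD, n = 3 each), 2.36-fold lower in Acss2-KO (log2 fold change -1.24, SE 0.18, limma adjusted p = 0.0019). This call held in each of 19 alternatives, with log2 fold changes between -1.32 and -1.05.

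Id1 (ENSMUSG00000042745, chromosome 2, 152736251 to 152737410) was at 25.5, 27.5 and 43.7 CPM in Acss2-KO livers, against 17.1, 23.1 and 16.4 CPM in WT livers. The groups did not overlap, but Acss2-KO replicate 1 lay close to WT replicate 2. The log2 fold change was 0.71 (SE 0.23, limma adjusted p = 0.042). The call was lost without Acss2-KO replicate 3 (0.16), WT replicate 1 (0.12) or WT replicate 3 (0.13), and without a variance trend and robust variances (0.051).

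Id3 (ENSMUSG00000007872, chromosome 4, 136143497 to 136145755) was at 66.7, 108 and 124 CPM in Acss2-KO livers, against 46.5, 63.1 and 52.7 CPM in WT livers. Here too the lowest Acss2-KO value, that of replicate 1, was just above the highest WT value, that of replicate 2. The log2 fold change was 0.83 (SE 0.25, limma adjusted p = 0.029). Without Acss2-KO replicate 1, the library with muscle transcripts, it was 1.09 (adjusted p = 0.0072). The call was lost without Acss2-KO replicate 2 (0.056), Acss2-KO replicate 3 (0.12), WT replicate 1 (0.095) or WT replicate 3 (0.084).

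Ratios within a library do not change when all its values are multiplied by the same factor. Quantile scaling, which acts by rank, can change them. The CPM ratio of Id2 to Id3 was 0.908, 0.655 and 0.629 in Acss2-KO livers, against 3.51, 2.97 and 2.81 in WT livers, so that the ratio, not corrected for gene length, was below 1 in every Acss2-KO library and above 1 in every WT library. It was 4.28-fold lower in Acss2-KO (two-sided exact permutation p = 0.10, the smallest possible; 0.13 adjusted over the 4 ratios). The ratio of Id2 to Id1 was 2.38, 2.58 and 1.78 in Acss2-KO livers, against 9.51, 8.11 and 9.0 in WT livers. The ratio of Id1 to Id3 was 0.382, 0.253 and 0.354 in Acss2-KO livers, against 0.369, 0.366 and 0.312 in WT livers, and here the groups overlapped (exact permutation p = 0.80, adjusted 0.80).

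**Figure D3:**
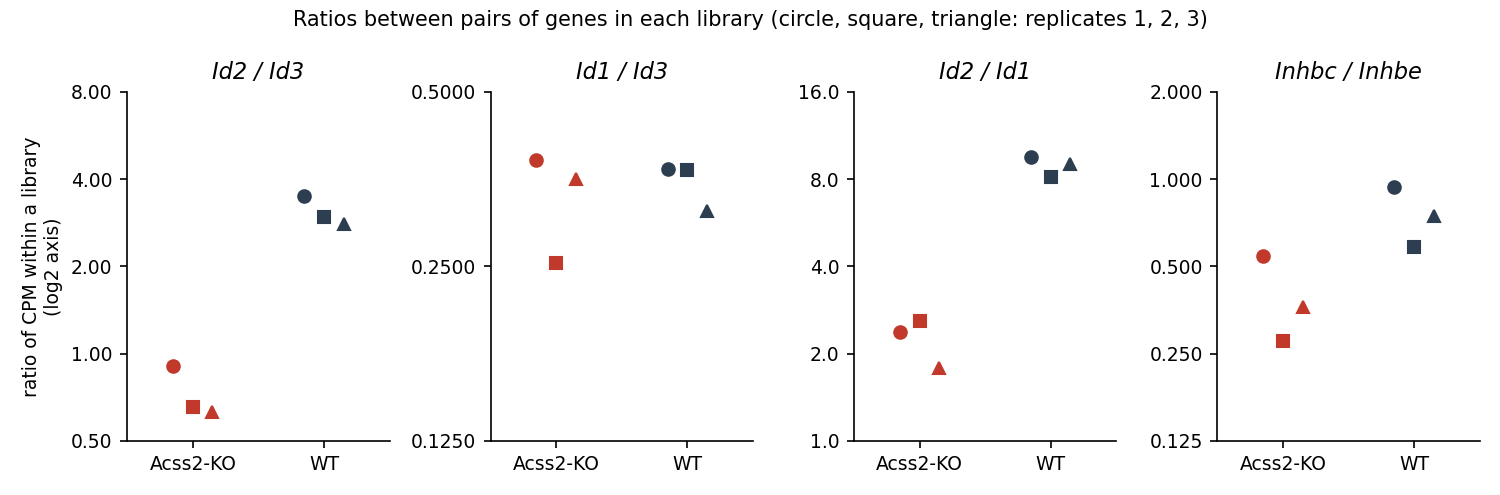
Each point is the ratio of 2 genes' CPM in 1 library on a log2 axis, Acss2-KO left in red and WT right in dark blue. The ratios of Id2 to Id3 and of Id2 to Id1 separate the genotypes by a wide gap, the ratio of Inhbc to Inhbe by a narrow one, and the ratio of Id1 to Id3 does not separate them.

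Other genes of the pathways were read from 6 lists sorted by role, of which 77 genes were in the table and 57 were tested. Of these, 13 were higher and 3 lower in Acss2-KO, and 41 did not pass. Among all 9355 tested genes 36.5% passed, 13.4% higher and 23.1% lower, which is the background for each list below. Their median log2 fold change was 0.11, against -0.12 for all tested genes.

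Among 8 tested ligand genes 3 were higher and none lower, with a median of 0.38. These were Inhbb, described above, and the BMP genes of sinusoidal endothelium. Bmp6, the BMP that sets hepcidin by iron, was at 8.46, 7.46 and 10.1 CPM in Acss2-KO livers, against 4.20, 5.94 and 3.43 CPM in WT livers (log2 fold change 0.83, SE 0.22, limma adjusted p = 0.019). Bmp2 was at 36.3, 28.2 and 35.3 CPM in Acss2-KO livers, against 20.1, 26.9 and 19.7 CPM in WT livers (0.57, SE 0.19, adjusted p = 0.042). The groups did not overlap for either. The WT mean of Bmp6, 4.52 CPM, was under the filter of 5 CPM, so it too was tested through its Acss2-KO level. The Bmp6 call was lost without Acss2-KO replicate 3 (0.087), WT replicate 1 (0.061) or WT replicate 3 (0.058). The Bmp2 call was lost without Acss2-KO replicate 1 (0.11), Acss2-KO replicate 3 (0.14), WT replicate 1 (0.13) or WT replicate 3 (0.096). Gdf15, a stress-induced ligand and the ligand gene with the most reads, was at 3.32, 22.8 and 20.1 CPM in Acss2-KO livers, against 97.7, 48.2 and 54.6 CPM in WT livers; the groups did not overlap, and it did not pass (log2 fold change -2.32, a 4.99-fold difference, adjusted p = 0.056). For Gdf15 the authors' deposited table gives a log2 fold change of -1.97 with an adjusted p of 2.3e-06. Acss2-KO replicate 1, the library with muscle transcripts, had the lowest Gdf15 value, and no Gdf15 fit without it is given.

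Receptors counted 4 higher and none lower of 11 tested, with a median of 0.18. Tgfbr2, the type II TGF-beta receptor gene, was at 107, 68.1 and 93.7 CPM in Acss2-KO livers, against 39.9, 46.5 and 26.5 CPM in WT livers (log2 fold change 1.24, SE 0.25, limma adjusted p = 0.0065). Hfe2, the hemojuvelin gene and a BMP coreceptor of hepatocytes, was at 137, 153 and 142 CPM in Acss2-KO livers, against 88.6, 86.2 and 88.6 CPM in WT livers (0.71, SE 0.16, adjusted p = 0.0099). The Hfe2 call was lost only on leaving out Acss2-KO replicate 1 along with WT replicate 2 (0.064). Tgfbr1 (0.73, adjusted p = 0.020) and the coreceptor gene Tgfbr3 (0.92, adjusted p = 0.024), the second named after its value was seen, were also higher. Tgfbr1 and Tgfbr3 lost their calls without Acss2-KO replicate 1 (0.061 for both), Acss2-KO replicate 3 (0.082 and 0.080), WT replicate 1 (0.067 and 0.074) or WT replicate 3 (0.053 and 0.080), in that order of genes. Genes for 5 receptors of activins and BMPs did not pass: log2 fold changes, looked up after values were seen, were -0.48 for Acvr1, 0.04 for Acvr1b, -0.04 for Acvr2a, 0.18 for Bmpr1a and -0.03 for Bmpr2.

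Of 9 tested genes for other extracellular binding proteins and proteases, none was higher and 1 was lower, with a median of -0.15. Tmprss6, a hepatocyte protease that cleaves hemojuvelin, was at 184, 236 and 209 CPM in Acss2-KO livers, against 491, 495 and 402 CPM in WT livers (log2 fold change -1.14, SE 0.20, limma adjusted p = 0.0037). The groups did not overlap, with a wide gap. Chrd, a secreted BMP antagonist looked up after its value was seen, was at 9.30 CPM on average in Acss2-KO and 6.65 CPM in WT and did not pass (adjusted p = 0.094).

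Smad genes and their regulators counted 4 higher and 1 lower of 20 tested, with a median of 0.20. The ubiquitin ligase genes Smurf1 (48.0 ± 6.60 CPM in Acss2-KO and 20.7 ± 3.19 CPM in WT, SD, n = 3 each) and Nedd4l (75.8 ± 11.2 and 38.2 ± 3.19 CPM), whose products tag Smads and receptors for breakdown, were higher. So was Skil, which encodes the SMAD corepressor SnoN (37.4 ± 9.07 and 15.1 ± 1.55 CPM), and log2 fold changes of these genes were 1.18, 0.96 and 1.23 (limma adjusted p = 0.0025, 0.0044 and 0.0033). Ppm1a, a Smad phosphatase and the gene of this list with the most reads, did not pass (0.27, adjusted p = 0.25). Smad1, a transducer of BMP signals, was higher (0.91, adjusted p = 0.026) and Smad3, a transducer of activin signals, lower (-0.88, adjusted p = 0.023). Within neither branch did the transducers all go 1 way. For BMP signals, Smad5 was at -0.43 (limma adjusted p = 0.053) and Smad9 at 0.77 (0.059). For activin signals, Smad2 was at 0.53 (limma adjusted p = 0.066). Smad5, Smad9 and Smad2 did not pass. All these transducers were named after their values were seen. The Smad1 call was lost without Acss2-KO replicate 1 (0.069), Acss2-KO replicate 3 (0.086), WT replicate 1 (0.056) or WT replicate 3 (0.098). The Smad3 call was lost without Acss2-KO replicate 1 (0.066), Acss2-KO replicate 3 (0.059), WT replicate 1 (0.082) or WT replicate 2 (0.062).

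Of 4 tested target genes 2 were higher and none lower. Hamp, the iron hormone hepcidin, was at 2062, 1090 and 1872 CPM in Acss2-KO livers, against 820, 671 and 910 CPM in WT livers (log2 fold change 1.02, SE 0.28, limma adjusted p = 0.020). It lost its call without Acss2-KO replicate 1 (0.059), Acss2-KO replicate 3 (0.087), WT replicate 1 (0.053) or WT replicate 2 (0.074). The Hamp call was also lost on leaving out Acss2-KO replicate 1 along with WT replicate 2 (0.15). Mice carry a close copy of this gene, Hamp2, and how the authors' counting split reads between them is not given in the files. Ctgf, a matrix-associated target of TGF-beta, was at 28.1, 19.2 and 28.8 CPM in Acss2-KO livers, against 8.51, 8.57 and 9.0 CPM in WT livers (1.42, SE 0.19, adjusted p = 0.0014). Atoh8, a BMP target in hepatocytes, overlapped between the groups (28.6, 21.1 and 37.01 CPM in Acss2-KO livers, against 53.4, 42.8 and 27.7 CPM in WT livers; adjusted p = 0.19), and was looked up after its value was seen.

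Among 5 tested helix-loop-helix partners, Hes6, a member of the Hes family, was lower (9.38, 12.9 and 7.01 CPM in Acss2-KO livers, against 34.5, 36.5 and 33.8 CPM in WT livers; log2 fold change -1.78, SE 0.21, limma adjusted p = 0.00090). The E protein genes, whose products Id proteins bind, did not pass. Tcf12, the one with the most reads, was at 32.1 ± 1.37 CPM in Acss2-KO and 26.7 ± 2.42 CPM in WT (SD, n = 3 each; adjusted p = 0.21), and adjusted p was 0.34 for Tcf3 and 0.20 for Tcf4, both looked up after their values were seen.

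**Figure D4:**
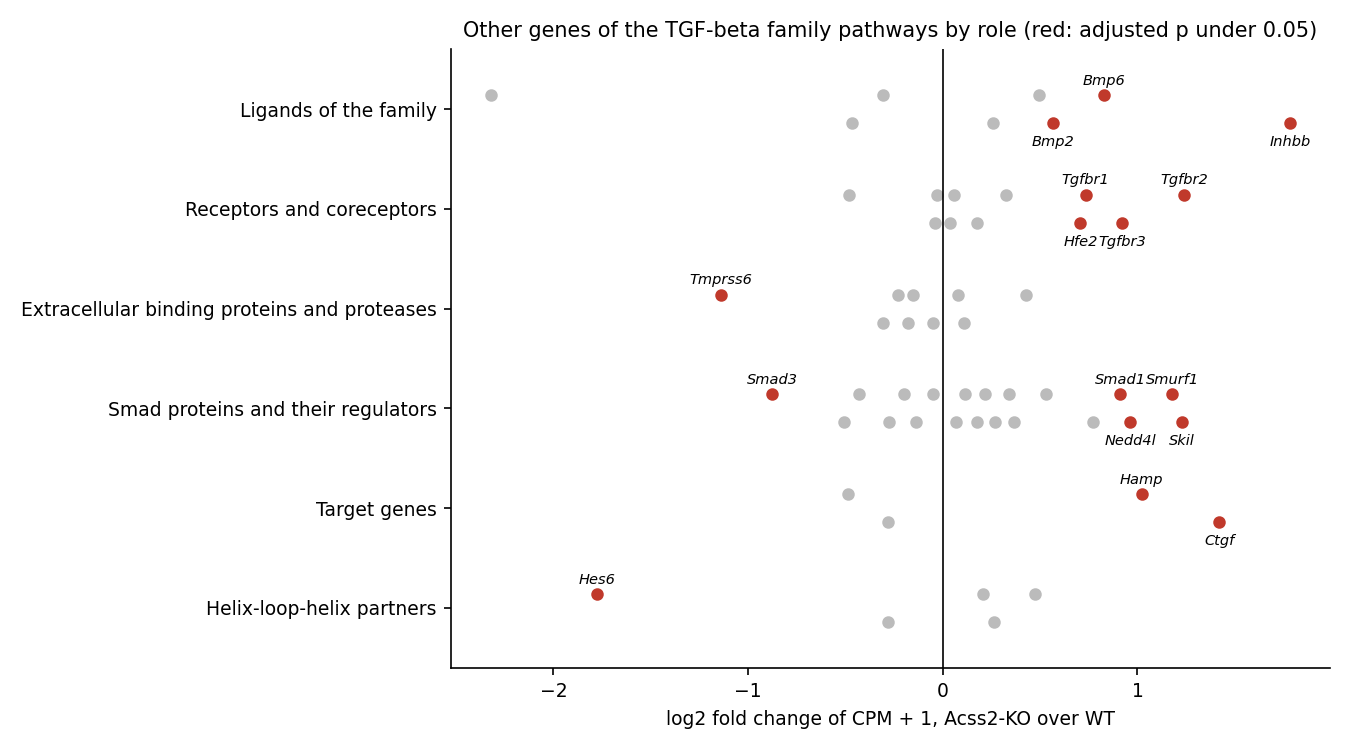
Each point is 1 tested gene of the 6 pathway lists, placed by its log2 fold change of CPM + 1, Acss2-KO over WT, with genes past an adjusted p of 0.05 in red and named. Red points lie right of 0 for ligands, receptors and targets, left of it for extracellular binding proteins and helix-loop-helix partners, and on both sides for Smad genes and their regulators.

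Several of these genes are expressed outside hepatocytes, Bmp2, Bmp6 and Bmper in endothelium among them, and some markers of other cells passed the test too, as did 36.5% of all tested genes. Of 10 sinusoidal endothelial markers 1 was higher and 2 lower in Acss2-KO, of 8 tested stellate markers 3 were lower, and of 7 tested Kupffer cell markers 3 were lower, none of either being higher. Of those Kupffer cell calls, Adgre1 was past the threshold in 9 of 18 alternatives, Clec4f in 10 of 19 and Cd5l in 16 of 19. The calls of Adgre1 and Clec4f were lost under median-of-ratios, trimmed-mean and quantile scaling. Acss2-KO means of Adgre1 (4.04 CPM) and of the called stellate markers Col3a1 (2.55 CPM) and Lrat (4.64 CPM) were under the filter of 5 CPM. These genes were thus tested through their WT levels. The other called stellate and Kupffer cell markers, Colec11, Cd5l and Clec4f, averaged above the filter in both genotypes. Acss2-KO replicate 2 was the Acss2-KO library nearest to WT for Inhbc, Inhbe, Inhbb, Fst, Bmper, Bmp2, Tgfbr1, Tgfbr2, Ctgf and Hamp. It was so too for Bmp6, Tgfbr3, Tmprss6, Smurf1, Nedd4l, Skil, Smad1, Smad3, Hes6 and Gdf15, but not for Hfe2, Id1, Id2 or Id3. This pattern was noticed after values were seen, and its share over all tested genes was not counted. The part of endothelial, stellate and Kupffer cells in the values above was not tested.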

How the data were processed

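Liver RNA was sequenced as 3 Acss2-KO and 3 WT TruSeq libraries, per the labels' protocols. The submitters' processing notes name Bowtie 0.12.2 and mm8 without saying at which step they were used; further steps are not given in the sources. The deposited values are log2 CPM with values under 1 CPM listed at 0, a scale read from the sums of the values. The authors also deposited log2 fold changes and p-values, quoted only where named; reads shared between similar genes or strands could not be checked. Coordinates are taken as GRCm38, since gene starts differed from its RefSeq annotation by a median of 8 bp. Of the 10 members, 7 had starts within 100 bp of that annotation.

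Values were turned into CPM and tested as log2(CPM + 1). The test was limma 3.58.1 (robust, trended variances; R 4.3.3, statmod 1.5.0) over the 9355 genes averaging 5 CPM or more, with Benjamini-Hochberg adjustment. Fold changes on this scale understate low genes. Depth was estimated from the steps of the lowest values. Alternatives changed the pseudocount, scaling, filter, variance model, replicate block or the libraries used. The procedure was tested on simulated data. Members, gene lists and tests were chosen with earlier results of these data known. Named were all members, Acss2, per list the 3 called genes with the smallest p and the gene with the most reads, the neighbours of Inhbc and Inhbe, and the 5 genes most like Bmper, the called member with the largest fitted change; of the lists, 2 genes are not reported here. Other names are marked as chosen after values were seen.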

Additional observations from a re-analysis of the deposited data

How the results depend on the processing

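The count of 6 called genes of the 10 was between 3 and 6 on leaving out each library in turn, with 3 without Acss2-KO replicate 3 or WT replicate 1. Called pathway genes numbered 16, and between 8 and 19 with a library left out. All called genes numbered 3413, and between 1717 and 3997 with a library left out. Leaving out the pair of Acss2-KO replicate 1 and WT replicate 2 gave 1993 genes. Among called pathway genes, that removed the calls of Inhbb (limma adjusted p = 0.16), Hamp (0.15), Tgfbr1 (0.10), Smad3 (0.086), Bmp2 (0.084), Hfe2 (0.064) and Smad1 (0.055). With a minimum of 20 CPM, where fewer genes are tested, 1853 genes were called. Without a filter the pathway count was 22. A minimum of over 1 CPM removed no gene, so it repeats the fit without a filter. The counts of alternatives given for each gene include both. The log2 fold change of Smad6 ran between -0.15 and 0.19 with a library left out, and turned to -0.06 without Acss2-KO replicate 3 and to -0.15 without WT replicate 3; the cause was not tested. The other 8 tested members kept their direction in every alternative.

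Libraries with the same replicate number did not deviate together (correlations of -0.10, -0.14 and 0.09 for numbers 1, 2 and 3), and not every library correlated best with its own number. With the replicate number as a block, 3397 genes, 6 of the 10 and 15 pathway genes were called; Inhbb (adjusted p = 0.16) and Bmp2 (0.058) lost their calls. Depth limits Inhba, Bmper and Fst, which lie at or near the floor in one genotype.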
